A study of Homo sapiens with 4 samples.

Results

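Replication-dependent histone genes are the 40 joined, protein-coding genes whose symbols begin with HIST1, HIST2, HIST3 or HIST4 (no HIST4 gene is among them), out of 52289 features found in all 4 libraries. They were taken by symbol and biotype, on main chromosomes, with an acceptable quantification status in each library, and not by any measured value. By the symbol, 6 belong to the linker histone class H1, 10 to H2A, 9 to H2B, 7 to H3 and 8 to H4. On chromosome 6 lie 35 of them and on chromosome 1 the other 5. The files name 46 such genes in at least 1 library, and 6 are not listed in all 4 and are not among the 40. The RNA came from LNCaP, an established human prostate cancer line from a lymph node metastasis, at passage 22 in medium with serum. One group of 2 libraries received an empty pReceiver-M72 vector and the other a CRYM vector, with 2500 ng of plasmid and 12 µL of Lipofectamine in both, and RNA was taken at 48 h. CRYM encodes mu-crystallin, a cytosolic thyroid hormone binding protein. Transfection was transient and GFP was followed, per the labels. A sort of transfected cells is not described there. The labels call the libraries of a group biological replicates but name no separate cultures, and the spread behind each p-value may be technical.

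The core histones H2A, H2B, H3 and H4 form the protein spool of the nucleosome, and H1 binds the DNA between spools. Replication-dependent copies are clustered, mostly single-exon genes that a dividing cell switches on in S phase. Their messages normally end just after a short stem-loop that SLBP, the stem-loop binding protein, recognises, and they carry no poly(A) tail. Some of these genes also give polyadenylated transcripts that use a downstream signal, which is known from differentiating and non-dividing cells. A stranded mRNA kit was used, per the labels, so the values below concern histone RNA kept by a poly(A) selection, and how much stem-loop-ended message also came through was not measured. In bulk RNA, more cells holding a transcript and more transcript per cell cannot be told apart.

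The value of each gene is its FPKM, its fragment count divided by transcript length and by the library's mapped fragments, as the authors deposited it for each library. Relative to empty vector library 1, the lowest values give a depth of 1.14 for the other empty vector library and of 0.841 and 1.07 for CRYM libraries 1 and 2. The CRYM locus (hg19 chromosome 16, 21250195 to 21314404, without a name in the files and placed by its neighbours) had 1.17 and 0.977 FPKM with the empty vector and 65.3 and 72.5 FPKM with the CRYM vector, with a limma adjusted p of 0.00253. Of 9 luminal prostate markers 2 are named among the joined features, and both were lower with the CRYM vector. SPDEF, a luminal transcription factor, had 86.9 and 84.5 FPKM against 46.8 and 48.0, with a limma adjusted p of 0.00517, and HOXB13, a prostate lineage factor, had 128.4 and 127.7 against 110.3 and 114.1, with a limma adjusted p of 0.0275. The call of HOXB13 was lost with no filter, with libraries rescaled to the same total and with quantile normalization. The part of this change in the histone values was not tested. None of the 3 basal and none of the 4 fibroblast markers is, so their absence could not be read. The endothelial marker CLDN5 was at most 0.275 FPKM, the neuroendocrine marker INSM1 at most 0.0138 FPKM and the immune marker HLA-DRA at most 2.40 FPKM.

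The normal histone message ends just after the stem-loop, while a polyadenylated transcript that uses a downstream signal can hold the stem-loop and run on past it. The stem-loop is shown for the tested genes whose annotated transcript holds it. GENCODE v29 (GRCh38) has a transcript model for all 40 symbols, and 25 of the 40 have only models that stop at the stop codon and so show no 3′ end. A stem-loop, 6 paired bases on each side of a 4-base loop, was found in models of 12 genes. Capitals mark stem and loop, and each is given 5′ to 3′ on the gene's strand.
HIST1H2AE, chr6:26217412-26217437, plus strand: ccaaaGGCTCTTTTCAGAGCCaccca
HIST2H2AA3, chr1:149842218-149842243, minus strand: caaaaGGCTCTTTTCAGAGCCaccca
HIST1H2BC, chr6:26123467-26123492, minus strand: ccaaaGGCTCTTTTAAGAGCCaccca
HIST1H2BF, chr6:26199963-26199988, plus strand: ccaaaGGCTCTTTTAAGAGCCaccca
HIST1H4E, chr6:26204996-26205021, plus strand: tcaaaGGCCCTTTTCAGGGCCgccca
HIST1H4I, chr6:27139649-27139674, plus strand: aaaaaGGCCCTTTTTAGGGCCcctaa
HIST1H2AE and HIST2H2AA3 have the same stem and loop. HIST1H2BC and HIST1H2BF share a form with a different last loop base, and both H4 genes have a stem of other letters, with 4 distinct forms over the 12 genes. In each of these 6 genes the annotated transcript runs on past the stem-loop. It does so by 51 bases in HIST1H2AE and 35 in HIST2H2AA3, by 116 in the single-exon model of HIST1H2BC and 212 in HIST1H4I, and by 732 in HIST1H2BF and 1022 in HIST1H4E. The poly(A) signal letters AATAAA stand after the stem-loop 1 time in HIST2H2AA3 and 2 times in HIST1H4E, and not in the other 4 models. A second, 2-exon model of HIST1H2BC has no stem-loop and 1 AATAAA in the 272 bases after its stop codon. The models of HIST1H1C, HIST1H2BO and HIST2H2AC end at the stop codon.

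Of the 40 genes, 9 had at least 1 FPKM in at least 2 libraries and entered the test, limma on log2(FPKM + 1) over all 10091 features that met the same filter. With the CRYM vector 7 of the 9 were higher and 0 lower at a limma adjusted p under 0.05, where 15.7% of all tested features were higher and 17.7% lower. The 7 are HIST1H1C, HIST1H2AE, HIST2H2AA3, HIST1H2BC, HIST1H2BF, HIST1H2BO and HIST1H4E, and HIST2H2AC and HIST1H4I had no call. At HIST2H2AA3 the libraries do not list the same loci, so whether its RNA differed was not shown. The count is a description, since 4 of the 9 (HIST2H2AA3, HIST1H2BF, HIST1H2BO and HIST1H4I) reached the filter only in the CRYM libraries. The 4 that reached it in every library are HIST1H1C, HIST1H2AE, HIST1H2BC and HIST2H2AC, and 3 of these rose. Counted by library values alone, the groups did not overlap in any of the 9, as in 72.2% of tested features, and 8 were higher and 1 lower, where 37% and 35.3% were. In the 4 genes that reached the filter only in the CRYM libraries, the filter itself fixed this outcome. The count of library values is therefore a description as well. Among the 4 genes that reached it in every library, 3 were higher and 1 lower. Over the 9 the median log2 difference was 1.10, against 0.01 over all 10091. This median includes the 4 genes that reached the filter only in the CRYM libraries, so it too is a description. Over the 33 genes above 0 in any library it was 0.04, against 0.01 over the 26474 such features. Of those 33 the CRYM libraries were both higher in 11 and both lower in 4, against 28.9% and 19.9% of such features. With no filter limma called 5 of the 33 higher and 0 lower, where it called 2.98% and 4.09% of features. Each of the 7 calls was lost when any 1 of the 4 libraries was left out, with the lowest limma adjusted p of a histone gene between 0.0591 and 0.0713, and with the replicate number as a block, where it was 0.057.

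**Figure D1:**
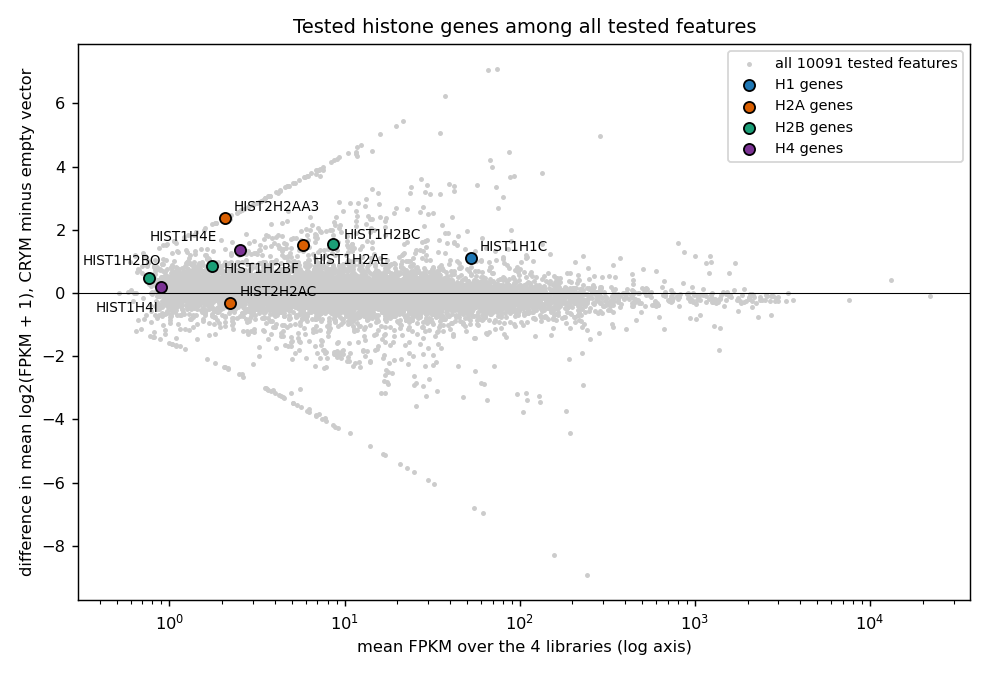
Difference in mean log2(FPKM + 1), CRYM minus empty vector, against mean FPKM over the 4 libraries (log axis) for all 10091 tested features (grey) and the 9 tested histone genes (coloured by class). HIST1H1C stands at the highest mean level, 52.7 FPKM, with a difference of 1.10, HIST2H2AA3 has the largest difference, 2.36, and HIST2H2AC is the only one below 0, at -0.33. The libraries do not list the same loci at HIST2H2AA3, so whether its RNA differed was not shown.

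HIST1H1C, which encodes the linker histone H1.2, had the highest FPKM of the 40 genes in every library. Its locus (hg19 chromosome 6, 26055968 to 26056699) had 32.7 and 33.5 FPKM with the empty vector and 70.6 and 74.1 FPKM with the CRYM vector. Both CRYM libraries lay above both empty vector libraries, and the deposited intervals did not meet. Its mean was 2.18-fold higher, from 33.1 ± 0.537 to 72.3 ± 2.45 (SD, n = 2 per group), 1.10 on the log2 scale (SE 0.0372, limma adjusted p 0.00489). A larger difference was seen in 336 of the 10091 features. The intervals imply 1312 to 3368 fragments per library, and at equal depth their ratio was 2.31. None of its 50-base stretches is shared with another histone transcript in GENCODE v29. The other 5 H1 genes stayed under 1 FPKM in every library. HIST1H1E had 0.387 and 0.570 FPKM with the empty vector and 0.531 and 0.629 with the CRYM vector, and its groups overlapped. HIST1H1B had 0.134 and 0.254 against 0.116 and 0.257, and HIST1H1D had 0.102 and 0.109 against 0.143 and 0.113, both on 4 to 11 implied fragments. HIST1H1T, the testis-specific H1, and HIST1H1A were at most 0.140 FPKM.

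Among the H2A genes, HIST1H2AE (hg19 chromosome 6, 26217165 to 26217711) had 2.50 and 2.48 FPKM with the empty vector and 8.23 and 10.1 FPKM with the CRYM vector. The groups and the deposited intervals stood apart. The mean was 3.67-fold higher, from 2.49 ± 0.0127 to 9.14 ± 1.29 (SD, n = 2 per group), 1.53 on the log2 scale (SE 0.112, limma adjusted p 0.0104). In CRYM library 1 an unnamed locus of 2852 bp with 9.24 FPKM reaches into its first bases. None of its 50-base stretches is shared with another histone transcript.

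HIST2H2AA3 (hg19 chromosome 1, 149813505 to 149814478) was listed at 0 in both empty vector libraries and had 4.20 and 4.09 FPKM in the CRYM libraries. Its log2 difference was 2.36 (SE 0.0615, limma adjusted p 0.00394), and no fold is given against values listed at 0. The libraries do not list the same loci there. In the empty vector libraries an unnamed locus, 149814428 to 149816121 in library 1 and 149816123 in library 2, had 4.61 and 4.64 FPKM. It overlaps only the edge of the gene, which ends at 149814478, and the CRYM libraries do not list it. All of the 50-base stretches of HIST2H2AA3 occur in another histone transcript, and HIST2H2AA4, its near-identical copy on the same chromosome, was listed at 0 in all 4 libraries. Whether the RNA of this gene differed was therefore not shown, and without it 6 histone genes were called higher.

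HIST2H2AC (hg19 chromosome 1, 149858525 to 149858961) had lower values with the CRYM vector but no call, with 2.42 and 2.77 FPKM with the empty vector and 1.74 and 1.99 with the CRYM vector. The groups did not overlap but the deposited intervals did. Its mean was 1.39-fold lower in the CRYM libraries, a log2 difference of -0.33 (SE 0.0929), and the limma adjusted p of 0.0872 gave no call. With quantile normalization it was called lower. It shares 30.5% of its 50-base stretches with other histone transcripts. An unnamed 12912-bp locus that starts within 1 kb of it had 29.4 and 28.6 FPKM against 24.5 and 24.2 and was lower, with a limma adjusted p of 0.0208. Of the 7 untested H2A genes, HIST2H2AA4, HIST2H2AB and the testis-specific HIST1H2AA were at 0 in all 4 libraries. HIST1H2AL had 0.612 and 0.593 FPKM against 0.207 and 0.463, and HIST1H2AJ had 0.478 and 0.491 against 0.332 and 0.176, both lower without overlap on 4 to 19 implied fragments. HIST1H2AH had 0.370 and 0.230 against 0.244 and 0.292, and HIST1H2AB overlapped as well.

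All 3 tested H2B genes rose, but 2 of them, HIST1H2BF and HIST1H2BO, reached the filter only in the CRYM libraries. That count is therefore a description. HIST1H2BC (hg19 chromosome 6, 26115101 to 26124154, a span that takes in the intron of its spliced model) had 3.73 and 4.02 FPKM with the empty vector and 13.7 and 12.8 FPKM with the CRYM vector. Groups and intervals stood apart. Its mean was 3.42-fold higher, from 3.88 ± 0.211 to 13.2 ± 0.670 (SD, n = 2 per group), 1.55 on the log2 scale (SE 0.0636, limma adjusted p 0.00583). It shares 7.70% to 9.004% of the 50-base stretches of its models with other histone transcripts. HIST1H2BF (hg19 chromosome 6, 26199748 to 26200942) had 0.960 and 0.973 FPKM against 2.88 and 2.23. Here too the intervals did not meet, with a 2.65-fold higher mean, a log2 difference of 0.85 (SE 0.121) and a limma adjusted p of 0.0260. HIST1H2BO (hg19 chromosome 6, 27861203 to 27861669) had 0.537 and 0.408 FPKM against 1.05 and 1.07. Those values stood on 8 to 20 implied fragments and their intervals overlapped, though the groups did not. The mean was 2.24-fold higher, 0.49 on the log2 scale (SE 0.0844, limma adjusted p 0.0359), and the call was lost with a pseudocount of 0.1, with no filter, with libraries rescaled to the same total and with quantile normalization. HIST1H2BF lost its call with no filter and with quantile normalization.

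In the 6 untested H2B genes the groups overlapped or were at 0. HIST1H2BE had 0.295 and 0.584 FPKM with the empty vector and 0.525 and 0.419 with the CRYM vector. HIST1H2BM had 0.259 and 0.0547 against 0.222 and 0.353, and HIST1H2BB had 0.131 and 0.113 against 0.0750 and 0.178. The groups of all 3 overlapped. HIST1H2BI overlapped too, at no more than 0.0671 FPKM, and HIST1H2BH and the testis-specific HIST1H2BA were at 0 in all 4 libraries.

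HIST1H4E was the H4 gene with the highest CRYM values. Its locus (hg19 chromosome 6, 26204858 to 26206266) had 0.916 and 1.03 FPKM with the empty vector and 3.92 and 4.24 FPKM with the CRYM vector. Groups and intervals stood apart. The mean was 4.18-fold higher, from 0.976 ± 0.0837 to 4.08 ± 0.232 (SD, n = 2 per group), 1.36 on the log2 scale (SE 0.0732, limma adjusted p 0.00709). Unnamed loci of about 1 kb reach into its first bases in empty vector library 1, at 0.549 FPKM, and in CRYM library 2, at 0.817 FPKM. HIST1H4I (hg19 chromosome 6, 27107076 to 27108418) had 0.932 and 0.605 FPKM against 1.04 and 1.00. The CRYM values were the higher ones, but the intervals overlapped and the limma adjusted p of 0.317 gave no call. HIST1H4I lies inside an unnamed 8547-bp locus that had 44.5 and 45.2 FPKM with the empty vector and 89.0 and 88.2 with the CRYM vector, and how reads were divided between the 2 was not tested. That larger locus was higher, with a log2 difference of 0.97 and a limma adjusted p of 0.00358.

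Of the 6 untested H4 genes, HIST1H4B had 0.154 and 0.193 FPKM with the empty vector and 0.777 and 1.11 with the CRYM vector, on 2, 3, 8 and 15 implied fragments. Its groups did not overlap, and it was called higher where the filter was lowered to 0.1 FPKM. HIST1H4C had 0.193 and 0.164 against 0.154 and 0.361, and HIST1H4A had 0.0575 and 0.144 against 0.0748 and 0.0572, with overlap in both. HIST1H4L reached 0.0740 FPKM in 1 library, and HIST1H4F and HIST1H4G were at 0 in all 4.

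**Figure D2:**
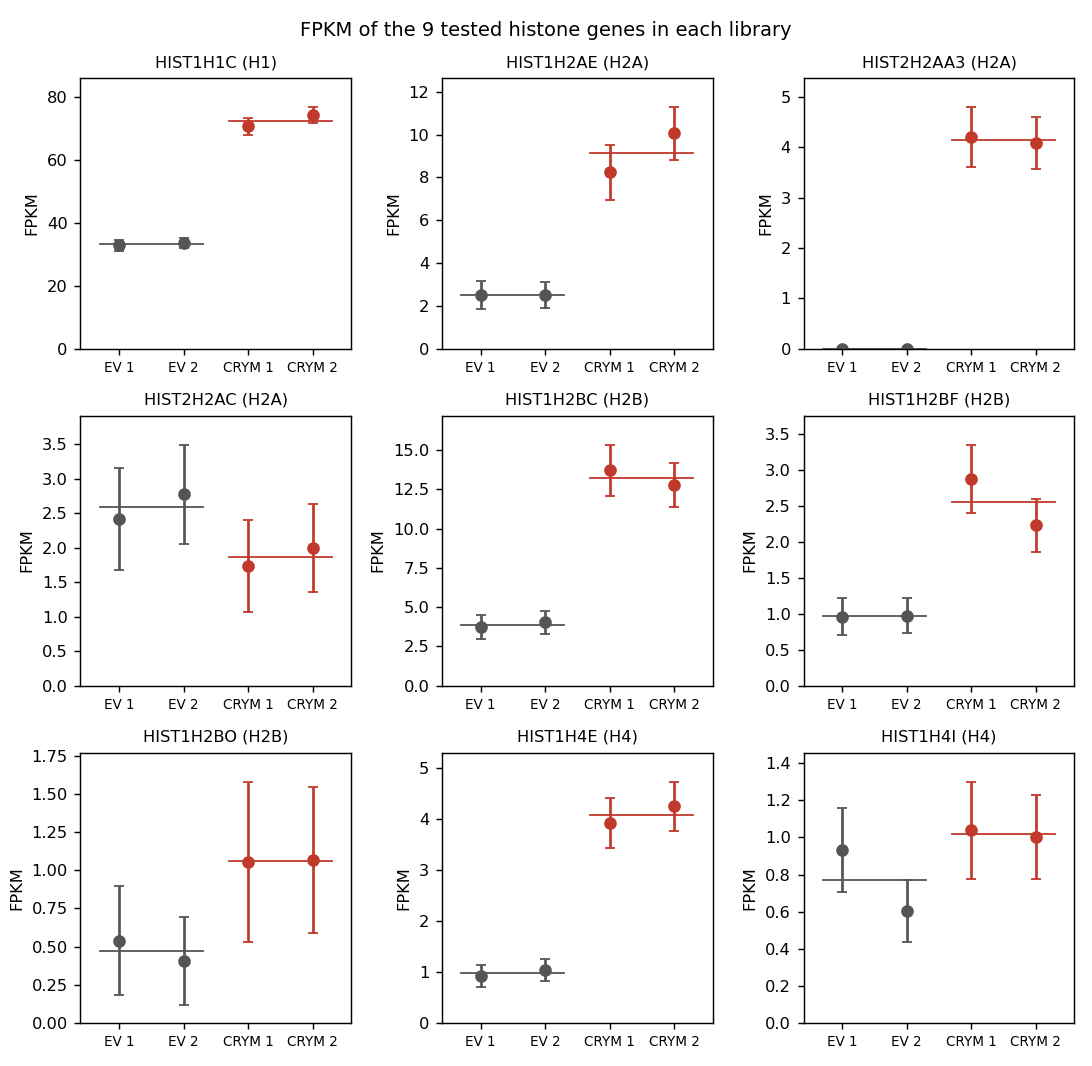
FPKM of the 9 tested histone genes in the 2 empty vector (EV, grey) and 2 CRYM (red) libraries, each panel starting at 0, with points for libraries, horizontal lines for group means and bars for the deposited intervals, which cover counting error only. The bars of the groups stay apart in HIST1H1C, HIST1H2AE, HIST2H2AA3, HIST1H2BC, HIST1H2BF and HIST1H4E and overlap in the other 3.

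The H3 genes differed from this picture in level: none of the 7 entered the test, and just 1 value reached 1 FPKM. HIST1H3A had 1.00 and 0.826 FPKM with the empty vector and 0.779 and 0.741 with the CRYM vector, lower without overlap on 10 to 14 implied fragments. HIST1H3B had 0.549 and 0.513 against 0.301 and 0.657. HIST3H3, the testis-specific H3 gene, had 0.571 and 0.232 against 0.466 and 0.734. In both, the CRYM values stood on either side of an empty vector value. The other 4, HIST1H3I, HIST1H3G, HIST1H3C and HIST1H3F, were at most 0.126 FPKM and at 0 in 2 or 3 of the libraries.

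Over the 31 untested genes of all classes, 7 were at 0 throughout and 24 had a value above 0 in at least 1 library, with a highest value of 1.11 FPKM. Among these 24 the CRYM libraries were both higher in 3 (HIST1H4B, HIST1H1D and HIST1H1T) and both lower in 3 (HIST1H2AL, HIST1H2AJ and HIST1H3A), and the groups overlapped in 18. Of all untested features above 0, 23.9% were higher and 10.4% lower without overlap. The median value of these genes rests on 5 implied fragments.

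**Figure D3:**
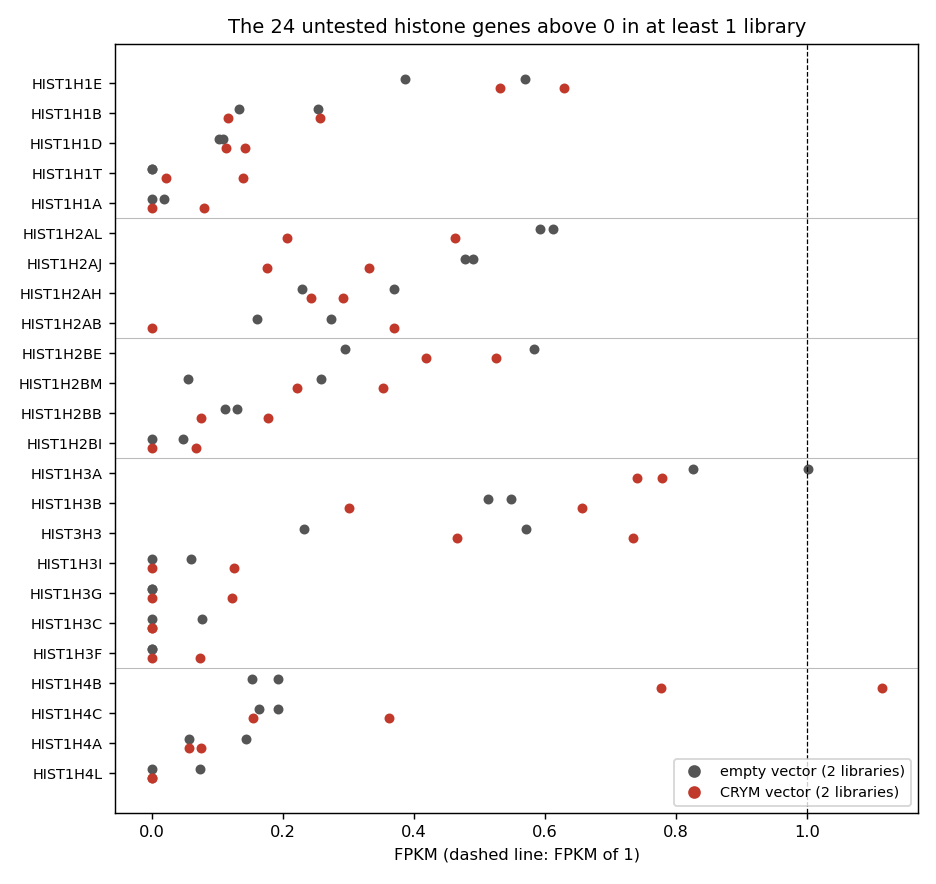
FPKM of the 24 untested histone genes above 0 in at least 1 library, 1 row per gene grouped by class from H1 (top) to H4 (bottom), with empty vector libraries in grey and CRYM libraries in red and a dashed line at 1 FPKM. The points mix in 18 genes, and HIST1H4B has the highest value, 1.11 FPKM.

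The H1, H2A, H2B and H4 sums were higher with the CRYM vector and the H3 sum overlapped. All 40 together came to 50.3 and 51.4 FPKM with the empty vector and 113.0 and 118.4 with the CRYM vector, of which HIST1H1C alone was 62.5% to 65.2%. Without HIST1H1C the sums were 17.5 and 17.8 against 42.4 and 44.3. The H1 sum was 33.4 and 34.5 against 71.5 and 75.2, of which HIST1H1C was 97.2% to 98.7%. Without HIST1H1C the H1 sum was 0.623 and 0.952 against 0.930 and 1.10, and the groups overlapped. The H2A sum was 6.54 and 6.84 against 15.3 and 17.1, and the H2B sum 5.91 and 6.21 against 18.5 and 17.0. In all 3 classes both CRYM libraries were above both empty vector libraries. The H4 sum was 2.25 and 2.22 against 5.96 and 6.78, also apart. The H3 sum was 2.198 and 1.63 against 1.62 and 2.38 and overlapped. The sums have no test, and without HIST2H2AA3 the H2A sum of the CRYM libraries was 11.1 and 13.0.

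**Figure D4:**
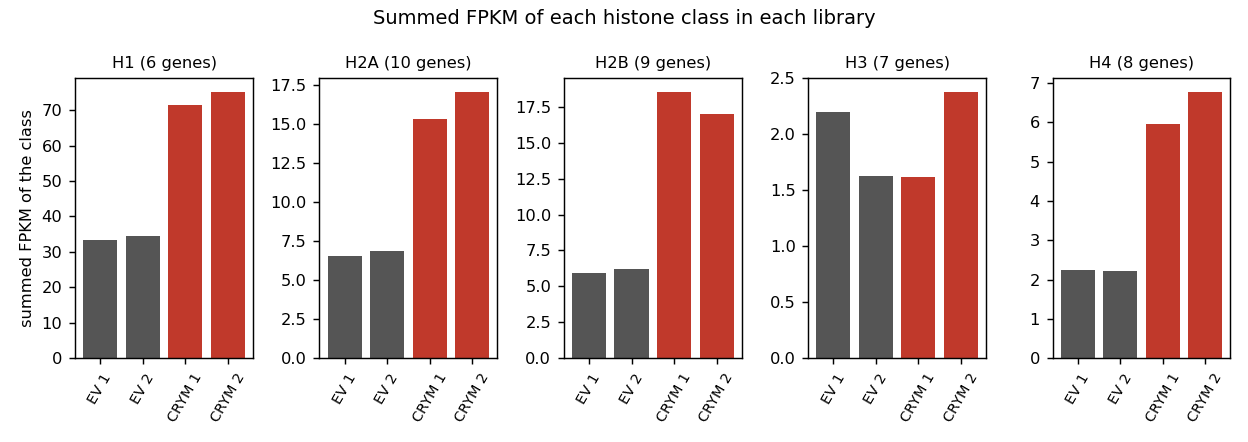
Summed FPKM of each histone class in the 2 empty vector (EV, grey) and 2 CRYM (red) libraries, each panel with its own axis from 0. The CRYM bars are the taller ones in H1, H2A, H2B and H4, while in H3 the bars of the groups overlap, from 1.62 to 2.38. HIST1H1C alone makes up 97.2% to 98.7% of the H1 bars.

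The start regions of the 9 tested genes are shown to set the called genes beside HIST2H2AC and HIST1H4I, which had no call. Each line holds the 150 bases before the RefSeq transcript start, 5′ to 3′ on the gene's strand (GRCh38.p14), and 36 of the 40 genes were matched to a promoter through RefSeq synonyms. Capitals mark, on either strand, TATAAA (the TATA box letters), CCAAT (the CCAAT box), ATTTGCAT (the octamer, known from H2B promoters) and AAACACA (the H1 box). No motif overlaps another in these 9 windows.
HIST1H1C, chr6:26056471-26056620, minus strand: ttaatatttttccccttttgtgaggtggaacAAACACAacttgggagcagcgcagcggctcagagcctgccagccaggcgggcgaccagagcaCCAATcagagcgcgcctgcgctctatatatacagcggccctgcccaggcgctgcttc
HIST1H2AE, chr6:26216771-26216920, plus strand: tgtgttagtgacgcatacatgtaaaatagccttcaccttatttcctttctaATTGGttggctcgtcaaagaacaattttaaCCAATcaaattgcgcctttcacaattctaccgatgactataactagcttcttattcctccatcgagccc
HIST2H2AA3, chr1:149842751-149842900, minus strand: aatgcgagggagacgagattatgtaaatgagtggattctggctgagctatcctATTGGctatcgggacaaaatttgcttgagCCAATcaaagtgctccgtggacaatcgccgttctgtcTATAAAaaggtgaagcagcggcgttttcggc
HIST2H2AC, chr1:149886768-149886917, plus strand: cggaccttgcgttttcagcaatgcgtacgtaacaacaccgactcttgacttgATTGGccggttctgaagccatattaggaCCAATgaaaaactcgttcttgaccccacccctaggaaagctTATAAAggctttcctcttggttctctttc
HIST1H2BC, chr6:26123927-26124076, minus strand: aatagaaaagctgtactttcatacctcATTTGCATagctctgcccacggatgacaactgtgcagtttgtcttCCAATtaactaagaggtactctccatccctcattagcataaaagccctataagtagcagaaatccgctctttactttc
HIST1H2BF, chr6:26199366-26199515, plus strand: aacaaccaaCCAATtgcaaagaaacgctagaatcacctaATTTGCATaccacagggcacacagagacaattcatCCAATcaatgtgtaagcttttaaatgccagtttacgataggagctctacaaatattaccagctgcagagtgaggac
HIST1H2BO, chr6:27893275-27893424, plus strand: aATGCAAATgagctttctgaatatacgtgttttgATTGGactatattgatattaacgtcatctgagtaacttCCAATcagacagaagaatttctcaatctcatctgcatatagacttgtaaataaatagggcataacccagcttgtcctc
HIST1H4E, chr6:26204460-26204609, plus strand: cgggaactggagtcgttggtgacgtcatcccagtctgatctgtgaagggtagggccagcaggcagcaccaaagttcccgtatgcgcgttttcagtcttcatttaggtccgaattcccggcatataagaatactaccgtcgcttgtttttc
HIST1H4I, chr6:27139132-27139281, plus strand: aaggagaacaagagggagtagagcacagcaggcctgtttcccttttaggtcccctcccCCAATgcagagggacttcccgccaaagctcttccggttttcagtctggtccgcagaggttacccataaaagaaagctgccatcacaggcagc
The motifs were also counted on both strands in the 300-base window from 250 bases before to 50 after each start, in all 35116 promoters of the RefSeq table. The octamer letters stood in 16 of the 36 histone promoters and in 1.77% of all promoters. They were in all 9 H2B and in 7 of 9 H2A promoters and in none of the H1, H3 and H4 promoters. Not all of these are separate sites. The windows of HIST1H2AA and HIST1H2BA overlap on opposite strands, as do those of HIST1H2AJ and HIST1H2BM, and the same octamer letters count for both genes. The 3 H2B genes that rose and the 6 below the filter all hold the octamer letters, but not at the same distance from the start. The first base stands at -149 to -111 in the 3 and at -120 to -45 in the 6. The H1 box letters were in all 6 H1 promoters, in 1 of 9 H2A promoters and in 5.64% of all promoters. CCAAT stood in 33 of 36, against 34.6% of all, and TATAAA in 24 of 36, against 11.5%. None of the 4 motifs is in the window of HIST1H4E, and that says only that these letters are not there.

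Several tested genes share their start region with a gene on the other strand. The 300-base window of HIST1H2BC overlaps that of HIST1H2AC by 255 bases, and HIST1H2AE overlaps HIST1H2BG by 268, HIST1H2BF overlaps HIST1H2AD and HIST1H3D by 278 each, and HIST1H2BO overlaps HIST1H2AM by 261. The window of HIST2H2AC overlaps that of HIST2H2BE, an H2B gene, by 265 bases. HIST2H2BE is outside the 40 because CRYM library 2 does not list it, and it had 14.9 and 15.7 FPKM with the empty vector and 42.9 FPKM in CRYM library 1. Beside these, HIST2H2AC had 2.42, 2.77 and 1.74 FPKM. In CRYM library 2 an unnamed locus of 42410 bp with 56.0 FPKM covers HIST2H2BE, so no test was made. The unnamed 14972-bp locus next to HIST1H2BC, in the place where RefSeq lists HIST1H2AC, had 13.5 and 13.9 FPKM against 46.1 and 44.9. It was 3.32-fold higher, with a limma adjusted p of 0.00305, beside 3.42-fold for HIST1H2BC.

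Other genes of the histone pathway were counted in lists chosen by function. Of 13 histone variants without a HIST symbol 4 are named among the joined features and 2 were tested, with 0 higher and 1 lower. That 1 was H2AFX, the H2A variant phosphorylated at DNA breaks, with 137.8 and 131.7 FPKM against 83.0 and 91.0 and a limma adjusted p of 0.0154. The other tested variant, H1F0, had 43.6 and 46.8 FPKM against 47.9 and 49.8 without a call (limma adjusted p 0.197). Of 25 genes of histone RNA 3′ end processing and decay 3 were tested, with 0 higher and 1 lower. LSM10, a protein of the U7 particle that cuts histone RNA, had 39.0 and 37.4 FPKM against 31.3 and 29.8, with a limma adjusted p of 0.0245. LSM11 and CSTF2T, the other genes tested from that list, had log2 differences of 0.139 and 0.0552 without a call. The calls of H2AFX and LSM10 were lost with libraries rescaled to the same total, and that of LSM10 also with no filter. Among 29 genes of polyadenylation and the RNA exosome, EXOSC5 alone was tested, at 14.6 and 19.6 FPKM against 12.5 and 18.1 without a call. Among 24 histone chaperones and modifiers ASF1A alone was tested, at 20.7 and 18.9 FPKM against 20.9 and 19.3 without a call. SLBP and most other members of these lists are not named among the joined features and were not analysed here.

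Histone genes are transcribed in S phase, and of 25 S phase and replication genes 2 are named among the joined features. Both fell. PCNA, the replication clamp, had 169.1 and 164.1 FPKM with the empty vector and 96.7 and 100.1 with the CRYM vector, a log2 difference of -0.75 with a limma adjusted p of 0.00597. E2F1, a transcription factor of S phase entry, had 23.9 and 22.7 FPKM against 10.4 and 10.8, a log2 difference of -1.07 with a limma adjusted p of 0.00609. Neither gene overlapped between groups. The part of the cell cycle in the histone values was not tested.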

How the data were processed

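RNA of 4 libraries of LNCaP cells (2 empty vector, 2 CRYM vector) was sequenced as single reads of 50 bp from a stranded mRNA kit, per the labels' protocols. Cufflinks 2.2.1, Cuffdiff, Bowtie2 2.2.9, TopHat2 2.1.1 and the build hg19 (GRCh37) are listed with no roles, per the submitters' processing notes. Use of strand in counting: not given in the sources used here. The values are FPKM with bounds and a status per locus, made by the authors and deposited as 1 table per library, per the file headers. Libraries were joined by Ensembl identifier, or by position where a library lists the locus without one, which applied to 7 of the 40 genes. A bound is taken as 2 SD of counting error on each side, which implies a number of fragments; these intervals cover counting error only, and the absolute depth is unknown. Coordinates are hg19 counted from 1 unless GRCh38 is named.

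Features with the status OK in all 4 libraries that reached 1 FPKM in 2 or more were tested with limma 3.58.1 (R 4.3.3) on log2(FPKM + 1), empirical Bayes with trend, two-sided, Benjamini-Hochberg adjusted over 10091 features at 0.05. A log2 difference is on that scale, which understates changes of low genes, and a fold is a ratio of mean FPKM. With 2 against 2, an exact permutation test cannot go below p = 0.333. The fit was tested on simulated data. Every tested histone gene is named, of the untested the 3 highest per class, and further untested genes were named after their values were seen. The members and lists were chosen with earlier results of these data known. Symbols were matched to GENCODE v29 by symbol and to RefSeq by synonym, and protein sequences were not used here. Alternatives covered the pseudocount, the filter, 3 scalings, the replicate block, the variance trend, the join and each library left out. Python 3.11.15, numpy 2.4.6, pandas 2.3.3 and matplotlib 3.10.9 were used.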

Additional observations from a re-analysis of the deposited data

How the results depend on the processing

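The direction of all 9 tested histone genes held under the 13 alternatives, and the count of genes higher in CRYM was 5 to 8 (7 as reported) in every one that kept all 4 libraries and used no block. One histone gene, HIST2H2AC, was lower with quantile normalization. With each library left out in turn the counts were 0 to 0 histone genes higher, 0 to 0 features higher and 0 to 0 features lower by limma, while 3627 to 3815 features and 7 or 8 histone genes had an unadjusted p under 0.05. A lone library is there assumed to vary like the other group. With the replicate number as a block limma called 0 features higher, 0 lower and 0 histone genes higher, though 7 histone genes were higher and 1 was lower by unadjusted p under 0.05. Same-numbered libraries correlated at 0.0361 in their deviations over the tested features. That value alone cannot settle whether the numbers pair the libraries. Features higher and lower were 788 and 1082 with no filter, and 678 and 623 with libraries rescaled to the same total. The cause was not tested. Scaling moved the median of all features by less than 0.1. EXOSC5 and ASF1A, without a call, changed sign when empty vector library 2 or CRYM library 1 was left out, with log2 differences of -0.404 to 0.0882 and -0.0419 to 0.0823 over the libraries left out. Low FPKM limits the untested genes.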

Other observations

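Protein-coding histone genes that are not listed in all 4 libraries give values without a test. HIST3H2A had 28.0 and 30.8 FPKM with the empty vector, and unnamed loci of 1220 and 1192 bp over it had 26.5 and 28.8 FPKM in the CRYM libraries. HIST1H2AG had 2.11 FPKM in empty vector library 2 and 2.65 and 2.89 in the CRYM libraries, and an unnamed 2857-bp locus over it had 2.18 FPKM in empty vector library 1. HIST1H4D had 0.0855 and 0.496 FPKM with the empty vector and 1.25 in CRYM library 1, and an unnamed 2592-bp locus over it had 0.668 FPKM in CRYM library 2. HIST1H4J was at most 0.574 FPKM and HIST1H4K at 0 where listed. Of the 13 histone pseudogenes in all 4 libraries none reached 1 FPKM. In 7 of them all values were 0, in 4 the groups overlapped, and in 2 both CRYM values were higher and in 0 both lower. Among all untested features above 0, 23.9% were higher and 10.4% lower without overlap. These pseudogenes are too few and too low to read a trend from, and none was tested. The highest values were those of HIST1H2BPS2, with 0.895 and 0.281 FPKM against 0.256 and 0.507, and HIST1H3PS1, with 0.763 and 0.350 against 0.314 and 0.435. HIST2H2BA, whose groups did not overlap, had 0.167 and 0.127 against 0.605 and 0.505.

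The stretch of chromosome 6 from HIST1H1A to HIST1H2BI (256.4 kb in hg19) was looked at after its values were seen. It held 31 and 33 assembled loci without an identifier and absent from at least 1 library in the empty vector tables, and 58 and 58 in the CRYM tables, a ratio of the means of 1.81. Over all main chromosomes the same ratio was 1.23, from 36345 and 39877 to 43423 and 50035 loci. Such loci covered 34.3 and 33.2 kb of the stretch with the empty vector and 47.1 and 52.5 kb with the CRYM vector. CRYM library 1 is the shallowest of the 4. The difference was not tested.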
